A study of Mus musculus with 4 samples.

Results

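Tracheal secretory cells whose Scgb3a2 message matched or exceeded their Scgb3a1 message, called Scgb3a2 cells here, numbered 2594 of 20359 filtered cells. They were taken by a rule on measured values. A cell needed 300 or more genes, at most 20% mitochondrial counts and at least 5% of its unique molecular identifiers (UMIs, counts of captured transcripts) from Scgb1a1. It also needed under 0.05% from the summed ciliated genes Ccdc153, Tmem212, Dynlrb2 and Rsph1, under 0.1% from Krt13 and Krt4 together, Tff2 under 0.1%, and at least as many Scgb3a2 as Scgb3a1 UMIs. The 3113 cells that passed the same rule but had more Scgb3a1 than Scgb3a2, called Scgb3a1 cells, were the class they were set against. A further 160 cells were gated out of both classes by Tff2.

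The cells came from tracheas of 4 genotypes of mice aged 5 to 8 months, all on the 129S6/SvEvTac background. The mutant lines were bgh mice with a mutation in Spef2, Cfap54gt/gt mice with a gene-trapped Cfap54 allele, and nm1054 mice lacking Cfap221, set beside wild-type mice. These mutations disturb the central pair of motile cilia and give mouse models of primary ciliary dyskinesia. Each genotype was 1 library of pooled cells, from 5 tracheas for bgh and 6 for each other genotype, so no group had a replicate. Cells were released with pronase, plated for 3 to 4 hours to remove fibroblasts and depleted of dead cells, steps that can set which cells reach a library. The deposited barcodes carried a library number from 1 to 4, and no label or file said which genotype a number stood for. Libraries are therefore named by number, no mutant was set against wild type, and no p-value was computed.

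Secretory (club) cells line the airway between the ciliated cells and release a protein-rich fluid that coats and defends it. Their most abundant products are secretoglobins, small secreted dimers, of which Scgb1a1, Scgb3a1 and Scgb3a2 are the main airway members. Secretory cells descend from basal cells and can give rise to ciliated and goblet cells. Reg3g, lactotransferrin (Ltf), lipocalin 2 (Lcn2) and surfactant protein A (Sftpa1) are secreted defence proteins of such cells. Calcb encodes a calcitonin gene-related peptide, and Psca a small cell-surface protein of the Ly6 family.

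Promoters are shown for genes on both sides of the contrast below, so that the sequence before a gene higher in Scgb3a2 cells can be read beside that of a gene lower there. Each holds 250 bases before and 50 bases after the RefSeq gene start, in build GRCm38.p6, read 5′ to 3′ on the gene's strand. Capitals mark matches on either strand to 6 motifs. They were the TATA box, searched as TATAAA, the forkhead motif, searched as TGTTTNC, and the NKX2-1 motif, searched as CAAGTG. The others were C/EBP, searched as TTGCNNAA, AP-1, searched as TGANTCA, and STAT, searched as TTCNNNGAA. Sftpb (chr6:72304360-72304659, plus strand) and Ecm1 (chr3:95739520-95739819, minus strand) were higher in Scgb3a2 cells. Reg3g (chr6:78468825-78469124, minus strand) was lower, and Scgb3a1 (chr11:49663345-49663644, plus strand) was lower by the rule itself.
Sftpb: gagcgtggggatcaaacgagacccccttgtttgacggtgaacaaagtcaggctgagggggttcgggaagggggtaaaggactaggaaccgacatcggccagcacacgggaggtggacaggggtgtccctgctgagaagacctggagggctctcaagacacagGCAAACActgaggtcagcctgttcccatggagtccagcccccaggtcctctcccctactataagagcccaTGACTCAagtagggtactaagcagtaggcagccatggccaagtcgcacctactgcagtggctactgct
Ecm1: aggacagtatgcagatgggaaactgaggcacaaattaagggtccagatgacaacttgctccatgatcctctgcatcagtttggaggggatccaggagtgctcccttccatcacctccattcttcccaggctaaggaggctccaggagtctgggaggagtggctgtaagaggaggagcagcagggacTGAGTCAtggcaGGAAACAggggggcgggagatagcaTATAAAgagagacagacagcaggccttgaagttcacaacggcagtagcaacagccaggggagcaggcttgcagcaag
Reg3g: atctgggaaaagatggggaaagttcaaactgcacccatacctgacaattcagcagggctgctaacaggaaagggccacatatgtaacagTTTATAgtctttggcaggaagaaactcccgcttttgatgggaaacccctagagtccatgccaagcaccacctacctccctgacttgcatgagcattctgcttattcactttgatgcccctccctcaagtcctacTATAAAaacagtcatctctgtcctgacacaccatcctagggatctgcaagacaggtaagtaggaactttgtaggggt
Scgb3a1: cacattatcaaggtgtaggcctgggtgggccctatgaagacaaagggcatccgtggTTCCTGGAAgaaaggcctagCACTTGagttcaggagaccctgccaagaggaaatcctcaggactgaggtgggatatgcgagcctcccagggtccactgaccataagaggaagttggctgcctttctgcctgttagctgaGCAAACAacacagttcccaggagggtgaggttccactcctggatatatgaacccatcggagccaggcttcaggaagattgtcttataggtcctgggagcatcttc
The Sftpb window held 1 forkhead and 1 AP-1 match, and the Ecm1 window held 1 forkhead, 1 AP-1 and 1 TATA match. The Reg3g window held 2 TATA matches, and the Scgb3a1 window held 1 forkhead, 1 NKX2-1 and 1 STAT match. None of the matches in these windows overlapped another. Of all 32544 promoters in the table, 13.6% held the TATA letters, 20.5% the forkhead letters, 13.5% the NKX2-1 letters, 10.8% the C/EBP letters, 7.79% the AP-1 letters and 8.33% the STAT letters. Of the 31 genes looked up, 23 had a promoter in the table. Outside the windows shown, the AP-1 letters occurred in Serpinb2, which was higher in Scgb3a2 cells, and in Sult1c1, which was lower. They did not occur in the windows of the other genes looked up, higher or lower. A match is a description of the letters in the window and not a bound site.

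Libraries 1 to 4 held 394, 403, 990 and 807 Scgb3a2 cells and 583, 773, 1092 and 665 Scgb3a1 cells. Among the gated cells of both classes, Scgb3a2 cells made up 40.3% (37.2 to 43.5) in library 1, 34.3% (31.6 to 37.1) in library 2, 47.6% (45.4 to 49.7) in library 3 and 54.8% (52.2 to 57.4) in library 4. These 95% Clopper-Pearson intervals did not overlap between any of the 4 libraries, and they cover counting error only. The order of the libraries was the same when the split needed a 2-fold margin, where the shares in libraries 1 to 4 were 39.0%, 33.5%, 49.4% and 60.8%. It was also the same after thinning, after removal of doublet candidates, with Scgb1a1 at 10% or more and with mitochondrial counts at 10% or less. Among all filtered cells, Scgb3a2 cells made up 10.3%, 10.2%, 13.8% and 14.8% in libraries 1 to 4, and there the intervals of libraries 1 and 2 overlapped, as did those of libraries 3 and 4. With each cell thinned to 2000 UMIs, the shares among both classes were 40.7%, 35.3%, 46.8% and 54.8% in libraries 1 to 4. The part of depth was not tested further. Genotype and the handling of a library, such as its dissociation, cannot be told apart as sources of these shares, since each genotype was 1 library.

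**Figure D1:**
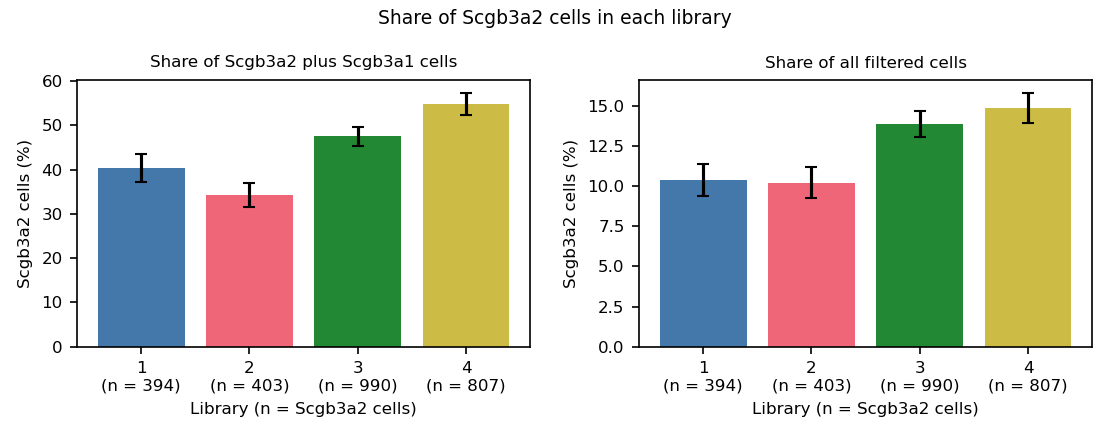
Percentage of Scgb3a2 cells in each of the 4 libraries, on the left among gated secretory cells of both classes and on the right among all filtered cells, with 95% Clopper-Pearson intervals as bars. Among gated secretory cells the share was lowest in library 2 (34.3%) and highest in library 4 (54.8%).

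The depth per cell was close between the classes. Median UMIs per cell were 15747.5, 12430, 8605 and 11153 in the Scgb3a2 cells of libraries 1 to 4, against 16894, 13120, 9029 and 11568 in the Scgb3a1 cells. Summed over cells, the Scgb3a2 cells gave 6741260, 6203464, 10174984 and 10402811 UMIs. The median mitochondrial share was 4.28%, 4.41%, 4.13% and 3.95% in Scgb3a2 cells and 3.77%, 3.95%, 3.80% and 3.54% in Scgb3a1 cells. It was thus slightly higher in the Scgb3a2 cells of every library, and its part in the results was not tested. Between libraries, 52 cell barcode sequences were shared, and 14 Scgb3a2 cells carried such a barcode. Doublet candidates made up 117 of the 2594 Scgb3a2 cells and 134 of the 3113 Scgb3a1 cells.

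The rule separated the classes by Scgb3a1 and not by Scgb3a2. Scgb3a2 stood at 24514, 20255, 24075 and 21632 CPM (UMIs of a gene for every 1000000 UMIs of its class) in the Scgb3a2 cells of libraries 1 to 4, and at 21308, 18357, 20443 and 21066 CPM in the Scgb3a1 cells. Scgb3a1 stood at 8341, 8332, 8149 and 5801 CPM in Scgb3a2 cells, against 69625, 52687, 60611 and 53307 CPM in Scgb3a1 cells. Scgb1a1 took 225265, 183534, 178066 and 153241 CPM in Scgb3a2 cells and 200131, 158302, 164669 and 177928 CPM in Scgb3a1 cells, and was the lower of the pair only in library 4. These values chose the cells and are given as a description. The label of the class is thus met by the ratio of both genes, while the level of Scgb3a2 itself was nearly the same on either side.

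Cells near the cut made up a graded middle. Between a Scgb3a2 to Scgb3a1 ratio of 1 and 1.25 there were 240 cells, with Scgb3a1 at 23186 CPM and Calcb at 75.6 CPM. Just outside, between 0.8 and 1, there were 255 cells, with Scgb3a1 at 27525 CPM and Calcb at 35.0 CPM. At the other threshold, the 114 Scgb3a2 cells with 5 to 6% Scgb1a1 had Calcb at 598 CPM and Psca at 2629 CPM, and the 116 cells kept out with 4 to 5% Scgb1a1 had Calcb at 573 CPM and Psca at 2878 CPM. Of the Scgb3a2 cells, 169 had no Scgb3a1 UMI, 20 had equal numbers of both and 5 had neither.

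Markers of other cell types were examined list by list. The 6 basal markers summed to 38.1 to 80.2 CPM in Scgb3a2 cells and 16.6 to 66.9 CPM in Scgb3a1 cells. In Scgb3a2 cells most of that was Aqp3, a water channel, at 29.8 to 51.7 CPM, while Krt5, the defining basal keratin, stood at 2.37 to 14.0 CPM in Scgb3a2 cells and 2.82 to 13.5 CPM in Scgb3a1 cells. The 4 hillock markers summed to 156 to 244 CPM in Scgb3a2 cells and 47.2 to 94.2 CPM in Scgb3a1 cells. Among these was Ecm1, which is described below as a called gene. In the Scgb3a2 cells of libraries 1 to 4 Ecm1 stood at 38.1, 30.6, 67.0 and 63.1 CPM. Over all filtered cells it stood at 25.3, 30.5, 44.4 and 64.5 CPM, so it was not higher in Scgb3a2 cells in library 4. Krt4 stood at 94.6, 79.0, 131 and 149 CPM in Scgb3a2 cells, against 25.6, 32.0, 51.4 and 49.6 CPM in Scgb3a1 cells, although the rule had removed cells with much of it, and over all filtered cells it stood at 53.8, 78.5, 113 and 140 CPM. Among cells of both classes with no Krt4 or Krt13 UMI at all, 24 genes were called higher and 14 lower between the classes, of which 22 and 13 were calls of the whole classes. The part of the basal and hillock markers in the other calls was not tested. The 7 goblet markers summed to 147 to 285 CPM in Scgb3a2 cells and 296 to 446 CPM in Scgb3a1 cells, the 6 ciliated markers to 31.6 to 46.1 CPM and 44.4 to 76.3 CPM, and the 6 tuft markers to 21.2 to 40.3 CPM and 34.9 to 79.4 CPM. Of the 5 gland markers, Smgc, Lpo, Dcpp1 and Dcpp3 were at 0 in all Scgb3a2 cells, while Ltf stood at 7041 to 8213 CPM and was called higher. At 0 as well were Lamp3 of alveolar type 2 cells, Col1a1 and Col1a2 of fibroblasts and Cdh5 of endothelium. Among the leukocyte markers, Lyz2 made up nearly the whole sum and Ptprc stood at most at 0.0983 CPM.

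Compared with Scgb3a1 cells, Scgb3a2 cells had higher levels of Calcb, Upk3bl, Ecm1, Sftpb and Ltf and lower levels of Reg3g, Sftpa1, Dmbt1 and Lcn2. A gene was called when its CPM, with 1 CPM added, differed at least 2-fold in the same direction in all 4 libraries. Of 10258 genes with at least 100 UMIs outside the rule, 34 were called higher (0.331%) and 24 lower (0.234%), and the median log2 ratio over all genes tested was 0.13. Both counts were smaller with 10 CPM added and larger with a 2-fold margin in the split, as given in the closing sections. Fewer genes were called lower after thinning. At 1.5-fold, a threshold chosen after the data were seen, 123 were higher (1.2%) and 74 lower (0.721%). Without library 2, whose cells had the lowest share of the class, 53 genes were at least 2-fold higher in the other 3 libraries. All ratios between classes below are on the log2(CPM + 1) scale, which understates the change of low genes. Folds between libraries are ratios of CPM with nothing added, with a count under 3 UMIs set to 3. The intervals given cover counting error only.

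Calcb was among the genes with the largest ratios. It stood at 156 (146 to 165), 220 (208 to 232), 207 (198 to 216) and 291 (281 to 302) CPM in the Scgb3a2 cells of libraries 1 to 4, against 13.3 (11.2 to 15.6), 22.1 (19.5 to 25), 39.9 (36.3 to 43.7) and 19.3 (16.4 to 22.5) CPM in the Scgb3a1 cells, with 95% Poisson intervals. The log2 ratios were 3.46, 3.25, 2.35 and 3.85, and every Scgb3a2 value lay above every Scgb3a1 value. Calca, which encodes the sister peptide, had a UMI in 3.08% of Scgb3a2 cells and 2.83% of Scgb3a1 cells, and its ratio changed sign between libraries. Of the 6 genes tested in the list of calcitonin peptides and their receptors, Calcb alone was called.

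Upk3bl, related to the uroplakins of the bladder surface, stood at 124, 111, 102 and 129 CPM in Scgb3a2 cells and 15.9, 19.7, 14.2 and 10.9 CPM in Scgb3a1 cells. Ecm1, which encodes a secreted matrix protein, stood at 38.1, 30.6, 67.0 and 63.1 CPM in Scgb3a2 cells and 4.14, 1.98, 9.53 and 4.24 CPM in Scgb3a1 cells. Sparc, a secreted collagen-binding protein, stood at 22.4, 17.7, 15 and 29.7 CPM in Scgb3a2 cells and 2.82, 2.07, 1.76 and 3.39 CPM in Scgb3a1 cells. For these 3 genes the classes did not overlap, and the smallest log2 ratio over libraries was 2.43 for Upk3bl, 2.69 for Ecm1 and 2.54 for Sparc. S100g, a calcium-binding protein, followed with log2 ratios of 2.68 to 3.73. Serpinb2, an inhibitor of plasminogen activators, stood at 228, 259, 247 and 263 CPM in Scgb3a2 cells, nearly the same in each library, against 70.9, 79.6, 54.4 and 32.7 CPM in Scgb3a1 cells.

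Areg, Ptgs2 and Porcn were called higher as well. Areg, a ligand of the EGF receptor, stood at 64.4, 34.8, 78.2 and 78.2 CPM in Scgb3a2 cells and 15.3, 11.8, 14.5 and 14.1 CPM in Scgb3a1 cells. Ptgs2, the inducible cyclooxygenase of prostaglandin synthesis, stood at 114, 145, 150 and 92.0 CPM in Scgb3a2 cells and 34.5, 39.8, 44.6 and 21.8 CPM in Scgb3a1 cells. Both were apart in every library, with no overlap between the classes. Porcn, which adds the lipid that Wnt proteins need for secretion, stood at 52.2, 61.9, 63.1 and 54.3 CPM in Scgb3a2 cells and 14.1, 14.0, 17.1 and 12.2 CPM in Scgb3a1 cells. The Wnt receptor Fzd1 had log2 ratios of 1.21 to 1.69 and the ligand Bmp4 of 1.31 to 1.88. Among 20 chemokines and cytokines tested, Areg alone was called higher and none lower, and Cxcl17 was higher and Ccl28 lower at 1.5-fold.

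Sftpb, Ces1f and Ltf were also higher. Sftpb, surfactant protein B, stood at 117, 108, 96.3 and 119 CPM in Scgb3a2 cells and 19.1, 18.7, 23 and 28.7 CPM in Scgb3a1 cells, with log2 ratios of 2.55, 2.46, 2.02 and 2.02. Ces1f, a carboxylesterase, stood at 97.6, 82.9, 98.9 and 92.8 CPM in Scgb3a2 cells and 24.5, 24.7, 30.3 and 21.0 CPM in Scgb3a1 cells. Ltf, an iron-binding antimicrobial protein and the most abundant of the genes called higher, stood at 7091, 7113, 8213 and 7041 CPM in Scgb3a2 cells and 2947, 3230, 3933 and 2495 CPM in Scgb3a1 cells. Its smallest log2 ratio was 1.06, and it fell just under the threshold, to 0.996, when secretoglobins were left out of the scaling. Of 28 enzymes of foreign-compound metabolism tested, Ces1f was the single call, and Selenbp1 was higher at 1.5-fold. Scnn1b, a subunit of the epithelial sodium channel, was the single call among 15 genes of ion and water transport, at 3.87 to 5.34 CPM in Scgb3a2 cells and 0.517 to 1.41 CPM in Scgb3a1 cells. The remaining genes of the 15 with the largest ratios were Alox12e, F5, Tspan5 and B4galt5, with smallest log2 ratios of 1.44 to 1.71.

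Psca, given with the class as a marker, was higher in every library without reaching 2-fold in all. It stood at 2514, 2600, 1743 and 942 CPM in Scgb3a2 cells and 1278, 1222, 876 and 248 CPM in Scgb3a1 cells. The log2 ratios were 0.98, 1.09, 0.99 and 1.92, so that libraries 1 and 3 lay just under the threshold. It passed when doublet candidates were removed, with a smallest log2 ratio of 1.02. The classes overlapped across libraries, since the Scgb3a2 cells of library 4 had less Psca than the Scgb3a1 cells of libraries 1 and 2. Among 11 members of the Ly6 family tested, Ly6d was called, at 449, 111, 438 and 194 CPM in Scgb3a2 cells against 167, 40.7, 161 and 41.3 CPM in Scgb3a1 cells.

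**Figure D2:**
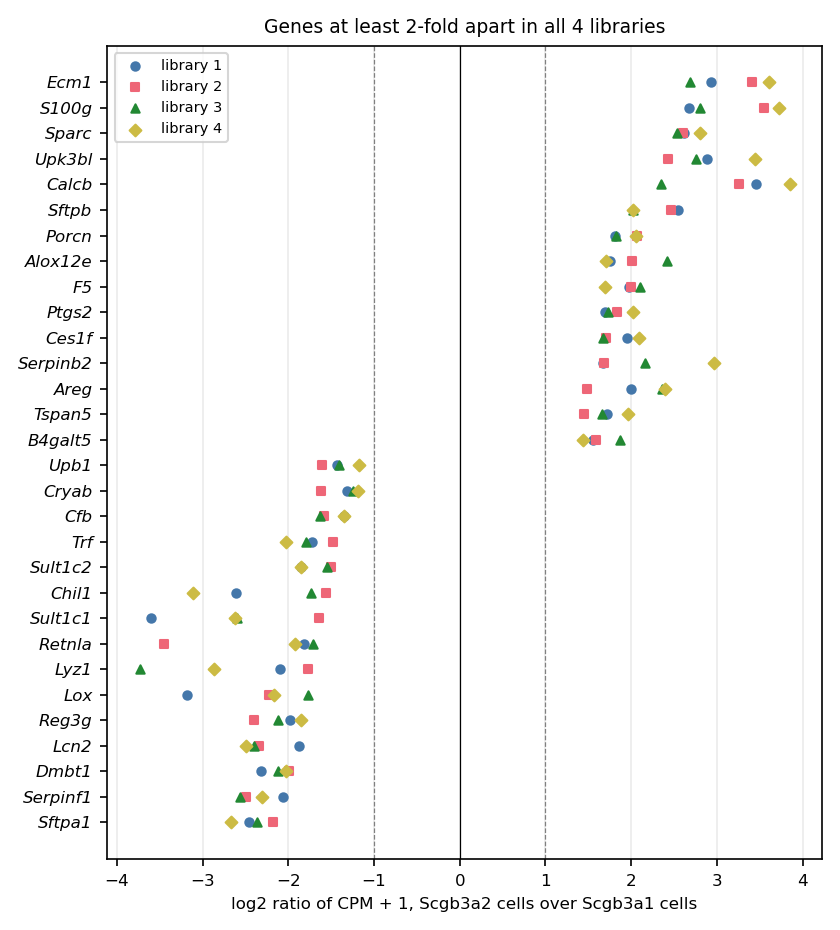
Log2 ratio of CPM (1 CPM added) in Scgb3a2 cells over Scgb3a1 cells for the 15 genes with the largest ratios in each direction, 1 point per library, with dashed lines at 2-fold. Calcb and Upk3bl lie among the highest ratios, and Sftpa1 and Reg3g among the lowest.

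Reg3g, Sftpa1, Dmbt1 and Lcn2 were lower in the Scgb3a2 cells of every library. Reg3g, a lectin that kills Gram-positive bacteria, stood at 3095, 1150, 1816 and 3354 CPM in Scgb3a2 cells and 12254, 6074, 7928 and 12132 CPM in Scgb3a1 cells, with log2 ratios of -1.99, -2.40, -2.13 and -1.85. Sftpa1, a collectin of surfactant, stood at 126, 103, 135 and 139 CPM in Scgb3a2 cells and 697, 468, 696 and 890 CPM in Scgb3a1 cells. Dmbt1, a scavenger protein of mucosal fluids, stood at 87.4, 41.9, 58.0 and 81.3 CPM in Scgb3a2 cells and 441, 170, 255 and 334 CPM in Scgb3a1 cells. The classes did not overlap for any of these 3 genes. Lcn2, which binds bacterial siderophores, stood at 59.6, 5.32, 13.1 and 34.3 CPM in Scgb3a2 cells and 222, 30.9, 73.4 and 199 CPM in Scgb3a1 cells. It was lower within every library, while the Scgb3a2 cells of libraries 1 and 4 had more of it than the Scgb3a1 cells of library 2.

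Of 17 secreted defence proteins tested, 1 was called higher (Ltf) and 5 lower (Lcn2, Reg3g, Dmbt1, Sftpa1 and complement factor Cfb), with a median log2 ratio over the list of -0.59 beside 0.13 over all genes. At 1.5-fold, Bpifb1 and the antibody transporter Pigr were also lower. Bpifb1 stood at 1073, 419, 624 and 903 CPM in Scgb3a2 cells and 2493, 1085, 1182 and 2149 CPM in Scgb3a1 cells. Of 6 surfactant and alveolar type 2 genes tested, Sftpb was higher and Sftpa1 and Lyz1 were lower, so the list split in direction. Lyz1 has a close copy, Lyz2, and reads shared between them could be counted for either. Trf, transferrin of the blood and of secretory fluids, stood at 144, 77.2, 71.4 and 92.7 CPM in Scgb3a2 cells and 481, 217, 250 and 382 CPM in Scgb3a1 cells. Lower genes of small size included Serpinf1, Lox, Retnla, Chil1, Upb1, Cryab and the paired sulfotransferases Sult1c1 and Sult1c2, and 6 of these 8 stood under 10 CPM in the Scgb3a2 cells of every library.

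Goblet genes moved little as a list. Of 17 tested, Gp2 alone was lower, at 0.742 to 1.67 CPM in Scgb3a2 cells against 3.27 to 17.2 CPM in Scgb3a1 cells, and the median log2 ratio was -0.30. At 1.5-fold, the goblet secretory proteins Clca1 and Fcgbp were lower as well. No member was called in either direction among 26 airway transcription factors, 9 Notch pathway genes, 11 keratins outside the rule, 24 genes of protein folding and secretion, 18 antioxidant genes, 13 junction genes or 18 early response and heat shock genes. The same held for 10 class I and 2 class II antigen presentation genes, 20 interferon response genes, 3 cell cycle genes and 2 gland genes. Over all genes tested 0.331% were called higher and 0.234% lower, so the lack of a call in lists of this size does not set them apart. Of the class II genes, Cd74 had log2 ratios of 1.80, -0.72, -0.46 and -0.33 in libraries 1 to 4. In the transcription factor list, the abundant Klf5 stood at 356, 445, 537 and 382 CPM in Scgb3a2 cells and 289, 358, 414 and 291 CPM in Scgb3a1 cells.

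Levels of several genes differed along the ratio of Scgb3a1 to Scgb3a2. Cells of both classes were placed in 7 bins of the log2 ratio of Scgb3a1 to Scgb3a2 UMIs, each with 1 UMI added, and summed within each bin. From the lowest Scgb3a1 share to the highest, and pooled over libraries, Calcb stood at 434, 262, 72.4, 63.4, 29.2, 24.1 and 18.3 CPM, with the Scgb3a2 cells in the first 4 bins. Upk3bl stood at 241, 104, 55.9, 30.6, 20.2, 14.9 and 11.1 CPM in the same bins. Both were highest in every library in the first bin, the 832 cells with Scgb3a2 at least 16-fold over Scgb3a1. The step was small for Calcb in library 1, at 264 CPM in the first bin and 238 CPM in the second, and within single libraries Calcb did not fall at every bin. Sftpb, pooled over libraries, stood at 150, 113, 106, 64.8, 37.1, 19.3 and 8.26 CPM, lower in each bin than in the one before. Within libraries 2 and 3 it did not fall at every bin. Pooled over libraries, Ltf stood at 9128 CPM in the first bin and 5572 CPM in the fourth, and was lowest, at 2799 CPM, in the sixth. Reg3g ran the other way, at 636, 2001, 2620, 4669, 7152, 10173 and 10681 CPM. Scgb3a2 itself was at 20311 CPM in the first bin, reached 25134 CPM in the fourth and stood at 14078 CPM in the last, so it was highest near the middle. The bins are defined by the genes that chose the cells, cells share libraries across bins, and these trends are descriptions.

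**Figure D3:**
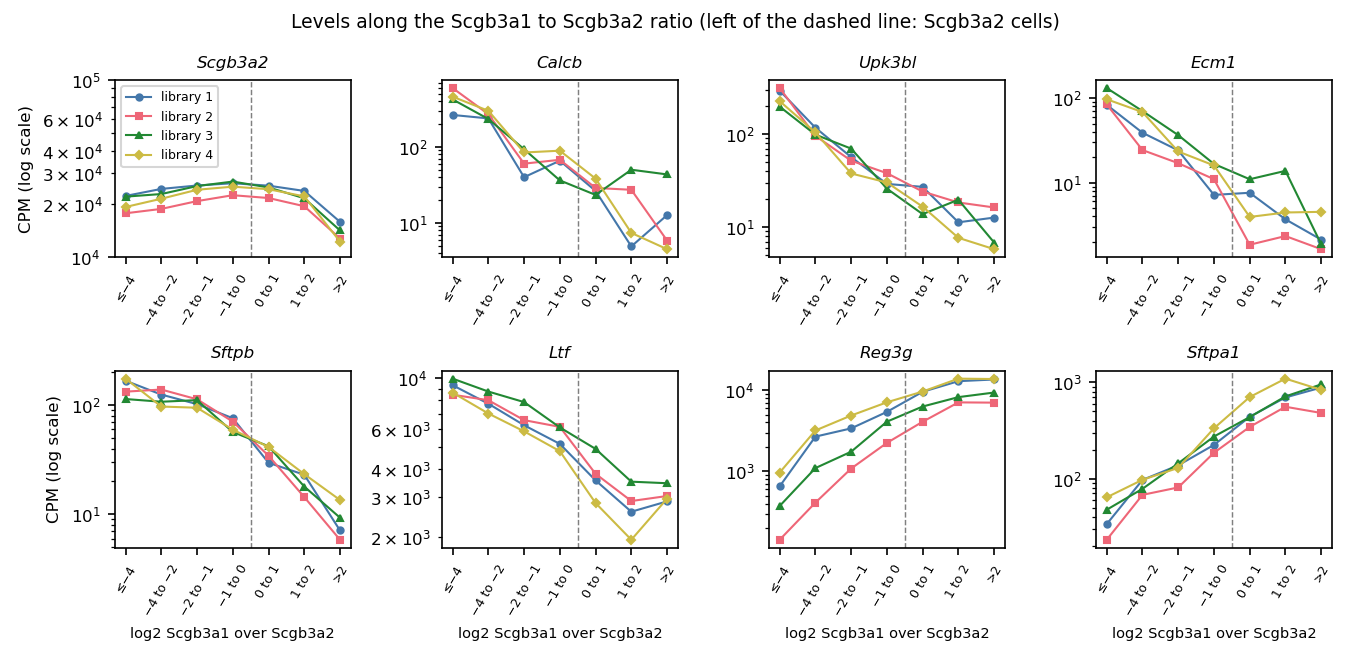
CPM (log scale) of 8 genes in 7 bins of the log2 ratio of Scgb3a1 to Scgb3a2 UMIs, 1 line per library, with Scgb3a2 cells left of the dashed line and Scgb3a1 cells right of it. Pooled over libraries, Calcb stood at 434 CPM in the first bin and 18.3 CPM in the last, and Reg3g at 636 CPM and 10681 CPM.

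Some genes higher in Scgb3a2 cells were higher again in basal cells, and others were lower there. A gate on Krt5 at 0.1% or more of UMIs, Scgb1a1 under 5% and the 4 summed ciliated genes under 0.05% took 1128 basal cells. Ciliated cells were those with the same 4 summed genes at 0.5% or more. Calcb stood at 1797, 885, 1800 and 914 CPM in the basal cells of libraries 1 to 4, which was above the Scgb3a2 cells of every library. Of the 34 genes higher in Scgb3a2 than in Scgb3a1 cells, 17 were higher in basal than in Scgb3a2 cells in all 4 libraries (50%), a share below the 56.2% of all 10258 genes tested. At least 2-fold higher in basal cells were 9 of the 34 (26.5%), beside 10.9% of all genes, and at least 2-fold lower were 6 (17.6%), beside 2.30% of all genes. Among the 15 with the largest ratios, Ecm1, Sparc, Upk3bl, Calcb and Serpinb2 were at least 2-fold higher in basal cells, and Sftpb, Alox12e and Ces1f at least 2-fold lower. Of the 24 genes lower in Scgb3a2 cells, 9 were at least 2-fold lower again in basal cells (37.5%, beside the same 2.30%) and none was at least 2-fold higher. Scgb3a2 was also present in basal cells, at 2567, 2168, 4063 and 3652 CPM, beside 74.8, 70.1, 176 and 251 CPM in ciliated cells. Basal cells had Scgb1a1 at 703, 837, 860 and 1090 CPM, in each library less than ciliated cells, which had 1103, 955, 1411 and 2090 CPM. The basal gate used Krt5, Scgb1a1 and the summed ciliated genes but not the other genes named here.

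Between Scgb3a2 and Scgb3a1 cells, the share of cells with a UMI gave the same order as CPM for the genes below. For this, each cell was thinned to 2000 UMIs. After thinning, Calcb had a UMI in 15.7% (14.3 to 17.2) of Scgb3a2 cells and 2.25% (1.75 to 2.85) of Scgb3a1 cells. It had one in 27.0% (24.4 to 29.8) of basal cells and 0.763% (0.367 to 1.40) of ciliated cells, a class that should lack the gene. Sftpb had a UMI in 16.3% of Scgb3a2 cells, 4.18% of Scgb3a1 cells, 0.0935% of basal cells and 0.153% of ciliated cells. The carboxylesterase Ces1f had one in 15.2%, 4.81%, 0.468% and 0.0763% of the same classes. Reg3g had one in 55.5% of Scgb3a2 cells, 93.3% of Scgb3a1 cells, 20.02% of basal cells and 85.5% of ciliated cells. By CPM, Reg3g stood at 20491, 8663, 5998 and 17586 in the ciliated cells of libraries 1 to 4. These values were above the Scgb3a1 cells in libraries 1, 2 and 4, unlike the order by share. Since the share in ciliated cells was above that in Scgb3a2 cells, ciliated cells gave no background for Reg3g. The share was lowest in basal cells, and the part of free RNA was not tested. Thinning left out 79 Scgb3a2, 97 Scgb3a1, 59 basal and 1326 ciliated cells, and the median depth before thinning was 11175, 11909, 4239 and 1991 UMIs. Without thinning, Calcb had a UMI in 28.2% of Scgb3a2 cells, 6.26% of Scgb3a1 cells, 30.4% of basal cells and 0.873% of ciliated cells.

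Against the rest of the filtered cells in each library, 12 of 12401 genes were at least 2-fold higher in Scgb3a2 cells in all 4 libraries (0.0968%), and 1103 were lower (8.89%). The other cells include the Scgb3a1 cells, which share most secretory genes. Sftpb was the most distinct, at 117, 108, 96.3 and 119 CPM in Scgb3a2 cells against 12.2, 13.2, 12.4 and 16.5 CPM in all other cells. Ces1f, Ltf, Scnn1b and Porcn were also among the 12, and 6 of the 34 genes higher than in Scgb3a1 cells were in this set. Stc2, a secreted glycoprotein, and Hp, haptoglobin, were higher than in all other cells without being called against Scgb3a1 cells. Hp stood at 449, 249, 224 and 505 CPM in Scgb3a2 cells and 180, 87.9, 69.9 and 194 CPM in all other cells. Neither Calcb nor Upk3bl was in the set. Against the Tff2-positive cells, 90 of 8888 genes were higher in Scgb3a2 cells (1.01%) and 31 lower (0.349%), but those cells numbered only 57, 27, 31 and 45 in libraries 1 to 4. Serpinb2 stood at 228, 259, 247 and 263 CPM in Scgb3a2 cells against 2.69, 19.5, 21.1 and 3.69 CPM in Tff2-positive cells, the last from 3, 9, 7 and 2 UMIs.

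Scgb3a2 cells were not uniform. In each library the 10% of Scgb3a2 cells with the most Calcb held 78.3 to 88.4% of its UMIs, and the median cell had none. For Upk3bl that share was 62.8 to 66.5%, for Sftpb 44.7 to 52.0%, for Ltf 29.0 to 30.9% and for Scgb3a2 25.5 to 27.4%. Calcb was thus carried by a minority of the class, and Ltf by nearly all of it. Across the Scgb3a2 cells of 1 library (n = 394, 403, 990 and 807), Spearman's rho was 0.37 to 0.41 between Calcb and Upk3bl and 0.40 to 0.51 between Upk3bl and Ecm1. It was -0.02 to 0.10 between Calcb and Sftpb, 0.35 to 0.51 between Ltf and Ces1f, and -0.44 to -0.28 between Ltf and Reg3g. Cells of 1 library share its depth and free RNA, and these values are descriptions.

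The split by Calcb showed the same minority. After thinning to 2000 UMIs, 41, 52, 154 and 149 Scgb3a2 cells of libraries 1 to 4 had a Calcb UMI and 323, 342, 820 and 634 had none. Upk3bl stood at 463, 260, 354 and 305 CPM in cells with a Calcb UMI and at 75.9, 74.6, 76.8 and 89.1 in cells without one. Serpinb2 stood at 683, 442, 591 and 621 CPM with a Calcb UMI and at 200, 211, 174 and 182 without. Psca stood at 4805, 4788, 3091 and 1742 CPM with a Calcb UMI and at 2255, 1997, 1575 and 793 without. All 3 genes were higher beside Calcb in each library. Sftpb rested on 3, 10, 23 and 39 UMIs in the cells with a Calcb UMI, too few for an order to be read from it. Scgb3a1 stood at 4122, 4067, 3666 and 2591 CPM with a Calcb UMI and at 8576, 9278, 8432 and 6631 without. Krt15, a keratin shared with basal cells, stood at 2049, 1058, 1201 and 2138 CPM with a Calcb UMI and at 904, 864, 752 and 1240 without.

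**Figure D4:**
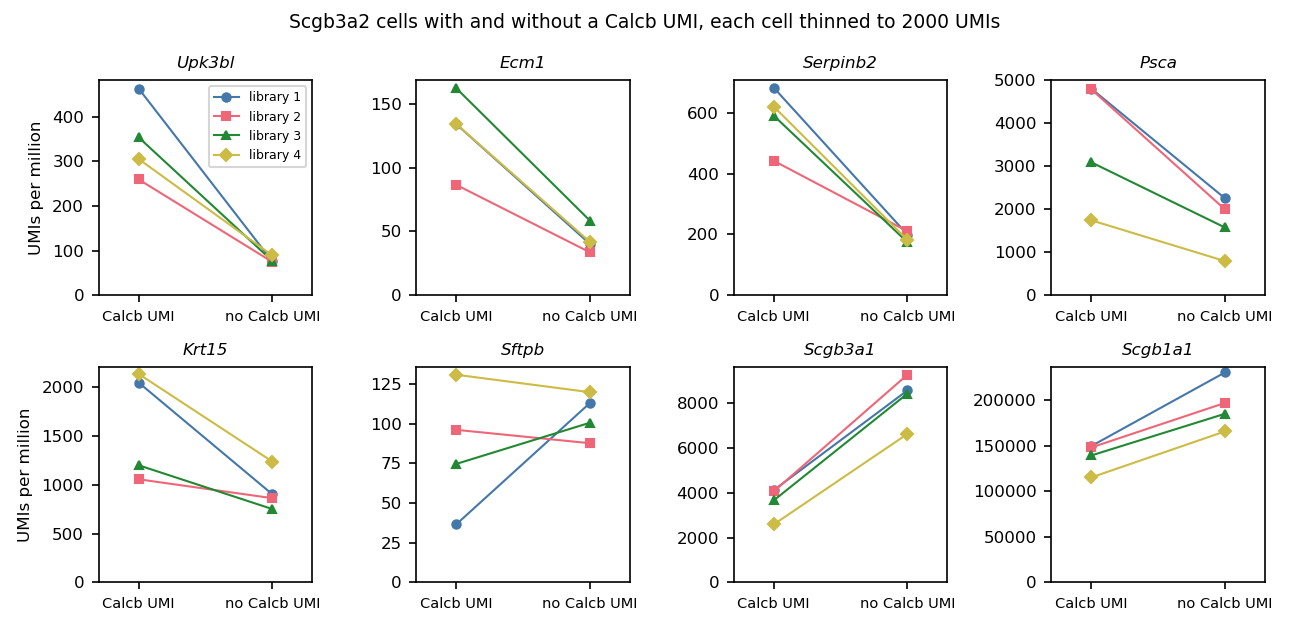
UMIs, scaled to 1000000 (CPM), of 8 genes in Scgb3a2 cells with and without a Calcb UMI after thinning each cell to 2000 UMIs, 1 line per library. Upk3bl, Serpinb2, Psca and Krt15 were higher and Scgb3a1 and Scgb1a1 lower beside Calcb in all 4 libraries. Ecm1 was higher there too, but rested on few UMIs in the 41 and 52 cells with a Calcb UMI of libraries 1 and 2. Sftpb rested on 3 to 39 UMIs in the cells with a Calcb UMI.

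Between libraries, 833 of 8772 genes tested within Scgb3a2 cells (9.5%) had a highest CPM at least 2-fold over the lowest with 95% Poisson intervals that did not overlap. With each library 1 sample, such differences describe libraries and not genotypes. Psca differed 2.76-fold, with library 4 lowest in Scgb3a2 cells and in Scgb3a1 cells alike. Lcn2 differed 11.2-fold in Scgb3a2 cells, with libraries 1 and 4 above libraries 3 and 2, and the same order held in Scgb3a1 cells. Reg3g was 2.92-fold apart and Ly6d 4.06-fold. Cav1, the coat protein of caveolae, stood at 51.6, 81.9, 13.3 and 106 CPM in the Scgb3a2 cells of libraries 1 to 4 and at 15.2, 25.3, 4.68 and 21.1 CPM in the Scgb3a1 cells, lowest in library 3 in both. Of the 50 called genes that were tested between libraries, 20 were also apart there, so their levels moved with the library as well as with the class.

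Library 3 stood apart by genes without a UMI. Dbi, an acyl-CoA binding protein, stood at 132, 126, 0 and 140 CPM in the Scgb3a2 cells of libraries 1 to 4, and at 124, 125, 0 and 127 CPM in the Scgb3a1 cells. A count of 0 in library 3 allows up to 0.295 CPM by the limit of 3 counts, and its 95% Poisson interval reaches 0.363 CPM. Tmem37 stood at 3.56, 8.87, 0 and 6.92 CPM in the Scgb3a2 cells. The deposited table also held a feature named eGFP, at 14.4, 137, 0 and 19.3 CPM in Scgb3a2 cells and 27.6, 120, 0 and 32.0 CPM in Scgb3a1 cells. Pianp stood at 7.57, 0, 0 and 7.69 CPM in the Scgb3a2 cells, and the other genes with the largest differences were Rps18-ps6, Sprr2k, Ccl5, Abcb1b, Plac9a and Tpm3-rs7. Rps18-ps6 and Tpm3-rs7 are named as copies of other genes, whose reads they may share. None of these 10 genes was called between the classes, and the calls between classes without library 3 numbered 33 higher and 31 lower.

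**Figure D5:**
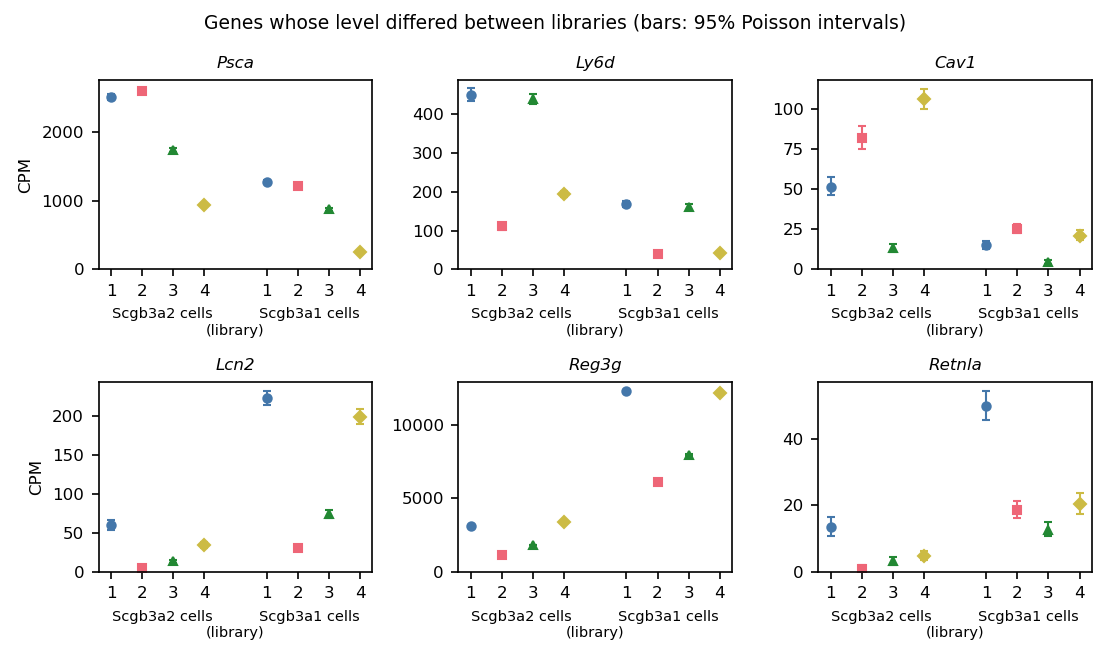
CPM of 6 genes in the Scgb3a2 cells (left in each panel) and Scgb3a1 cells (right) of libraries 1 to 4, with 95% Poisson intervals. Lcn2 and Reg3g were lowest in library 2 in both classes, Cav1 was lowest in library 3, and Psca was lowest in library 4.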

How the data were processed

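Single-cell 3′ libraries (Chromium v3.1) of tracheal cells were sequenced, and the authors deposited raw UMI counts per gene and barcode for the 4 libraries in 1 matrix, written by Cell Ranger 6.0.1 per the file headers. The build was GRCm39 per the submitters' processing notes, and nothing used here names the annotation release. There were 21667 barcodes, of which 1308 were removed for under 300 genes or over 20% mitochondrial UMIs. The deposited counts were summed over the cells of a class in each library and scaled to CPM, and ratios used a pseudocount of 1 CPM over genes with at least 100 UMIs. The named genes are the 15 called genes in each direction with the largest smallest ratio, the called members of 20 gene lists, and the 10 genes most apart between libraries, or from other classes. Fzd1, Bmp4, Cav1 and Bpifb1 were named after their values were seen. The members and lists were chosen with earlier results of these data known. No model or test was fitted, since measured values cut the classes from the same cells and each genotype was 1 library. Doublet candidates were scored library by library by the share of simulated doublets, 2 for each cell, among the nearest neighbours in 30 components. The setting of 15 neighbours was enlarged to allow for the simulated doublets, and the highest scores marked up to 0.8% per 1000 cells. Candidates were kept, and their removal was an alternative. The calling step was tested on simulated counts with known folds. Python 3.11.15, numpy 2.4.6, scipy 1.17.1, pandas 2.3.3 and scikit-learn 1.9.0 were used. Libraries 1 to 4 held 44520016, 39658153, 53491773 and 47459846 UMIs. Shares have Clopper-Pearson intervals and CPM values exact Poisson intervals, at 95%. Alternatives changed the pseudocount, the UMI minimum, the scaling, the averaging over cells, the depth, the split, the rule's thresholds, doublets, shared barcodes and the libraries used.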

Additional observations from a re-analysis of the deposited data

Results flagged for a closer look

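A few genes had opposite ratios of at least 2-fold between Scgb3a2 and Scgb3a1 cells in different libraries. The log2 ratio of Calca, the sister peptide gene of Calcb, was 1.02 in library 1 and -1.85 in library 2. Krt14, a basal keratin, was at 1.38 in library 1 and -1.04 in library 3. Of the interferon response genes, 3 had their highest ratio in library 3 and their lowest in library 1, at 1.80 and -1.88 for Oasl1, 1.85 and -1.55 for Rsad2, and 1.09 and -1.05 for Ifit3. The chemokine Cxcl13 was at 1.69 in library 1 and -2.29 in library 2, and the cornified envelope gene Sprr2k at 1.94 in library 2 and -1.23 in library 1. The mitotic gene Ube2c was at 1.68 in library 4 and -1.79 in library 2, and the muscle actin Acta1 at 2.32 in library 4 and -1.14 in library 1. The difference between libraries was not tested for any of these genes, since each library was 1 sample.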

How the results depend on the processing

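The results come from no test, so no paired test was run, and the labels give no shared replicate numbers. Both classes came from the same libraries, and their ratios were taken within each library throughout. No named called gene changed direction under any alternative run. Direction was not compared for named genes that were not called, and some of these had ratios of both signs between libraries. The count of higher genes, 34, was 17 with 10 CPM added (all 17 among the 34), 61 with a 2-fold margin in the split and 123 at 1.5-fold (both with all 34 among them). The count of lower genes, 24, was 7 with 10 CPM added, 13 after thinning, 40 with the margin, 74 at 1.5-fold and 14 among cells with no Krt4 or Krt13 UMI, of which 7, 11, 24, 24 and 13 were among the 24. The 1.5-fold setting and that without Krt4 or Krt13 UMIs were chosen after the data were seen. Leaving out 1 library gave 33 to 53 higher and 25 to 32 lower genes, with 53 without library 2. The pooled share of Scgb3a2 cells, 45.5%, was 47.4% with the margin and 42.2 to 48.4% with 1 library left out. The 833 genes apart between libraries became 244 at 400 or more UMIs, 323 after thinning and 403 to 551 with 1 library left out, fewer because fewer genes or libraries entered. The cause of the other changes was not tested. With secretoglobins left out of the scaling, 33 genes were higher and 33 lower. Of the 34 named called genes, 19 were called in every setting run, among them Calcb, Upk3bl, Ecm1, Sftpb, Ces1f, Reg3g, Sftpa1, Dmbt1 and Lcn2. Genes near 1 CPM in 1 class, such as Alox12e, Sult1c2 and Gp2, lost the call with 10 CPM added. Ratios of genes under about 3 UMIs in a class cannot be read at this depth.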

Other observations

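A few called genes were looked at after their values were seen, and no group is described by them. Mndal, an interferon-inducible gene, stood at 8.90, 12.9, 26.4 and 9.23 CPM in the Scgb3a2 cells of libraries 1 to 4 and at 4.42, 6.81, 7.85 and 3.15 CPM in the Scgb3a1 cells, a call at 1.5-fold. Ifi202b, a close relative called at 2-fold, stood at 316, 600, 794 and 309 CPM in Scgb3a2 cells and at 127, 292, 334 and 67.6 CPM in Scgb3a1 cells. These genes are alike in sequence, so reads could be shared between them. Of the 20 interferon response genes tested as a list, none was called at 2-fold in either direction, beside 0.331% higher and 0.234% lower of all genes. At 1.5-fold Ifi27l2a alone was called, lower in Scgb3a2 cells. Bmp2 stood at 6.08, 10.8, 11.9 and 8.94 CPM in Scgb3a2 cells and at 2.92, 4.65, 2.74 and 2.55 CPM in Scgb3a1 cells, a call at 1.5-fold.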
